A study of Mus musculus with 12 samples.

Results

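The genes described here are 10 mouse genes of lipid transport and of the liver X receptor (LXR) programme: the apolipoproteins Apoe, Apoc1 and Apoc2, lipoprotein lipase (Lpl), the cholesterol transporters Abca1 and Abcg1, the receptor-degrading ligase Mylip, the LXR genes Nr1h3 (LXRα) and Nr1h2 (LXRβ), and the phospholipid-remodelling enzyme Lpcat3. They were chosen by symbol with earlier results of these data known, so the counts of calls below do not test the set. All 10 of 10 were found among the 43432 gene identifiers measured and passed the filter that left 12705 genes for testing. RNA was sequenced from BV2 cells, an immortalized mouse microglial line, in 12 libraries of 6 groups with 2 replicates each. Every group, the untreated one included, came from cells that had been moved 24 h after seeding to medium without serum and kept there for at least 4 h. The untreated group received neither a compound nor LPS, and the sample titles name no vehicle for any group. The LPS group received lipopolysaccharide, the endotoxin of Gram-negative bacteria, at 100 ng/mL, and 4 groups received the same LPS 1 h after 6-gingerol at 10 µM, 6-gingerol at 30 µM, 6-shogaol at 10 µM or 6-shogaol at 30 µM. Both compounds are pungent phenols of ginger, and 6-shogaol is the dehydration product of 6-gingerol, with an α,β-unsaturated ketone in place of a β-hydroxy ketone. The time from LPS to harvest is not given in the sources used here, and no group received a compound without LPS. BV2 is a single transformed line, and no label states that replicates came from separate cultures, so p-values measure only the spread between these samples.

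Liver X receptors are nuclear receptors that pair with retinoid X receptors and are activated by oxysterols, oxidized forms of cholesterol. In macrophages and microglia they switch on genes that move cholesterol out of the cell. ABCA1 passes cholesterol and phospholipid to lipid-poor apolipoproteins, of which APOE is the main one made in the brain. ABCG1 exports cholesterol to mature lipoprotein particles. APOE is also a ligand of lipoprotein receptors, and APOC1 and APOC2 travel on the same particles, APOC2 as the cofactor that lipoprotein lipase needs.

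Library totals ran from 16534960 to 21179867 expected counts. The label was checked against marker genes: 11 of 13 microglial markers passed the filter and summed to between 1289 and 1535 CPM (read counts divided by library size, after scaling between libraries) in each of the 12 libraries. Csf1r, Tyrobp, Ptprc and Itgam were at least 166.5 CPM in every library, whereas P2ry12 and Cx3cr1, markers of resting microglia in tissue, stayed near or below 1 CPM. The summed microglial level was 1461 and 1482 CPM with LPS and 1289 and 1376 CPM with 6-shogaol at 30 µM. Of the 11 tested, 2 were called higher and 0 lower with LPS, beside 11.8% of all genes called. With 6-shogaol at 30 µM against LPS, 1 was called higher and 2 lower, beside 25.4% of all genes. Among the markers of other cells that make apolipoproteins or lipase, Aqp4, Gjb6 and Slc1a3 of astrocytes and Lep and Plin1 of adipocytes had no count in any of the 12 libraries, and the 9 hepatocyte and adipocyte markers summed to at most 1.82 CPM. Of the 9 astrocyte markers, 2 passed the filter, and their list summed to 80.5 and 82.0 CPM with LPS and to 93.2 and 108.1 CPM with 6-shogaol at 30 µM. These 2 went opposite ways: Gja1 was called higher with LPS (1.42) and lower with 6-shogaol at 30 µM against LPS (-0.79), and Aldoc, which makes up most of the sum, was called higher with 6-shogaol (0.49) and not with LPS (0.03). Of the 9 fibroblast and endothelial markers, 4 passed. Their list summed to 142.6 and 163.7 CPM untreated, 129.2 and 131.8 CPM with LPS, and 128.4 and 134.7 CPM with 6-shogaol at 30 µM. Most of this sum came from markers not called in the comparisons that follow. With LPS 2 of the 4 were called higher (median of the 4, 2.04) and with 6-shogaol at 30 µM against LPS the same 2 were called lower (median -1.60), namely Col1a1, with 5 and 7 reads untreated, 22 and 34 with LPS and 2 and 5 with 6-shogaol, and Pecam1, with 1 and 2, 10 and 15, and 2 and 4 reads. Of the 9 oligodendrocyte markers, 3 passed, with 0 called with LPS and 1 called lower with 6-shogaol at 30 µM (median -0.86), Mbp, at 12 and 25 reads with LPS and 5 and 4 with 6-shogaol. Of the 9 neuronal markers 0 passed. These markers are named after their values were seen. The part of these marker levels in the results was not tested.

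LPS lowered the 3 apolipoprotein genes and Lpl and raised Abca1. Adding 6-shogaol at 30 µM moved Apoe, Apoc1 and Lpl the other way, raised Lpcat3, and lowered Abca1 and Nr1h3 to below their untreated levels. In counts, LPS changed 5 of the 10 genes (1 higher, 4 lower), while 11.8% of all 12705 genes were called, 7.66% higher and 4.16% lower. Leaving out LPS replicate 1 gave 2 calls, and leaving out LPS replicate 2 gave 3. A gene is called here at an adjusted p under 0.05 over all genes tested. With 6-shogaol at 30 µM against LPS, 6 of the 10 were called (4 higher, 2 lower), beside 25.4% of all genes, 12.6% higher and 12.8% lower. With 6-shogaol at 10 µM, 0 of the 10 were called beside 0.638% of all genes, 0.063% higher and 0.575% lower. By DESeq2 0 of the 10 were called. By edgeR 1 of the 10, Lpcat3, had an unadjusted p under 0.05, beside 10.8% of all genes. With 6-gingerol at 10 and at 30 µM, 0 of the 10 were called by edgeR, 0 by DESeq2, and 0 had an unadjusted p under 0.05. The background for both 6-gingerol doses was 0%, with 243 and 189 of all genes at an unadjusted p under 0.05 and 0 and 2 called by DESeq2. The LPS libraries are the reference of all 4 compound comparisons and 1 side of the LPS comparison, so these comparisons are not independent of each other. In whole-culture RNA, fewer cells making a transcript and less of it per cell cannot be told apart.

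**Figure D1:**
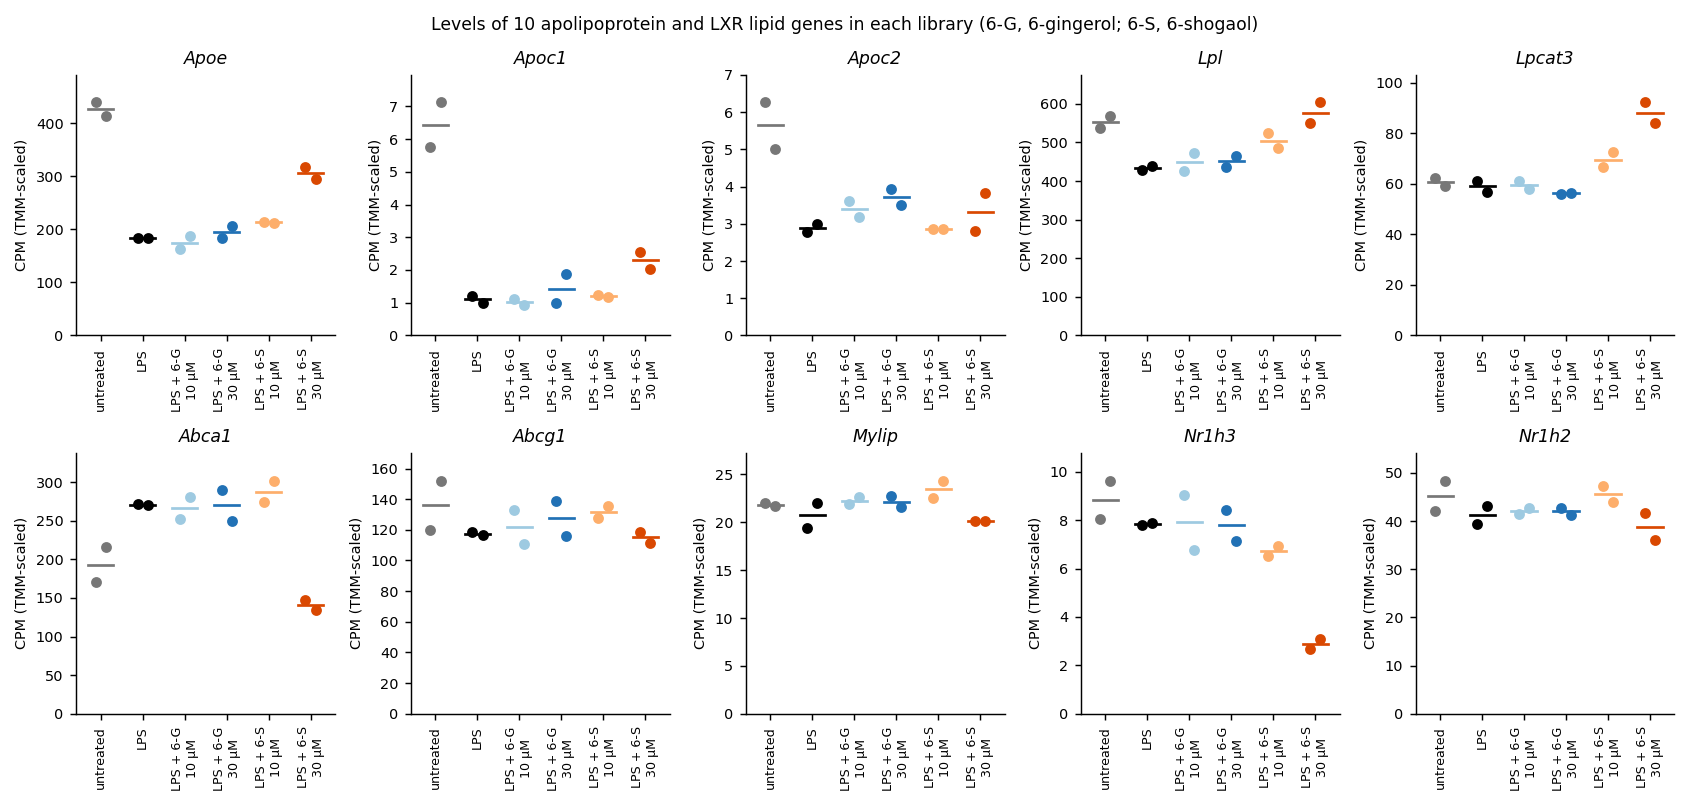
Level of each of the 10 genes (CPM after TMM scaling, linear axis from 0) in the 12 libraries, by group; dots are libraries and horizontal lines the means of 2. Apoe is at 438.8 and 412.8 CPM untreated and at 184.1 and 184.4 CPM with LPS, and stands at 316.5 and 295.4 CPM with 6-shogaol at 30 µM, while Abca1 and Nr1h3 are lowest in that last group.

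Apoe, the main apolipoprotein of microglia and astrocytes, had the highest level per transcript length of the 10 genes, with 666.5 ± 55.4 TPM (a level per transcript length and library size; SD, n = 2) in untreated cells against 168.8 ± 22.1 TPM for Lpl, the next. It lies on the minus strand at chr7:19696109-19699188 (GRCm38). Its level was 438.8 and 412.8 CPM in the untreated libraries and 184.1 and 184.4 CPM with LPS. The LPS libraries thus lay at 0.433 of the untreated mean, with no overlap, and the log2 change was -1.21 (SE 0.10, adjusted p = 6.96e-07). With 6-gingerol Apoe stood at 162.2 and 186.4 CPM (10 µM) and at 183.4 and 205.4 CPM (30 µM), and both pairs lay across the LPS values. With 6-shogaol it stood at 214.4 and 212.5 CPM at 10 µM and at 316.5 and 295.4 CPM at 30 µM. Both 6-shogaol doses lay above all LPS and 6-gingerol libraries. At 10 µM the log2 difference from LPS of 0.21 was not called (interval -0.004 to 0.43, adjusted p = 0.461), and at 30 µM it was 0.73 (SE 0.10, adjusted p = 0.000105), a 1.66-fold higher mean. The order of the group means was therefore untreated, 6-shogaol 30 µM, 6-shogaol 10 µM, then 6-gingerol 30 µM, LPS and 6-gingerol 10 µM, and the last 3 overlapped.

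Apoc1, a small apolipoprotein that inhibits lipoprotein uptake, lies next to Apoe at chr7:19689481-19692660 and had the largest change of the 10. Its level was 5.75 and 7.12 CPM untreated (112 and 153 reads) and 1.21 and 1.00 CPM with LPS (20 and 21 reads). That is a 5.82-fold lower mean without overlap, with a log2 change of -2.55 (SE 0.29, adjusted p = 1.77e-05). It stood at 1.11 and 0.931 CPM with 10 µM 6-gingerol, at 0.983 and 1.87 CPM with 30 µM, and at 1.23 and 1.16 CPM with 10 µM 6-shogaol. Each of those 3 groups overlapped the LPS libraries. The 30 µM 6-shogaol libraries held 2.56 and 2.03 CPM of Apoc1, above both LPS libraries, a log2 difference of 1.06 (SE 0.32, adjusted p = 0.0254). This last call rests on 42 and 36 reads against 20 and 21. It was lost in DESeq2 (1.06, adjusted p = 0.0594) and when LPS replicate 1 (1.19, adjusted p = 0.0693), LPS replicate 2 (0.92, 0.165) or 6-shogaol 30 µM replicate 1 (0.89, 0.145) was left out.

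Apoc2, the activator of lipoprotein lipase, lies farther along the same strand at chr7:19671579-19677941. It was 6.26 and 5.02 CPM untreated and 2.79 and 3.00 CPM with LPS, without overlap, a log2 change of -0.96 (SE 0.21, adjusted p = 0.00588). The call was lost without LPS replicate 1 (-0.91, adjusted p = 0.0636). At 30 µM 6-shogaol its libraries, at 2.81 and 3.83 CPM, overlapped those with LPS, and no call was made (log2 difference 0.20, interval -0.27 to 0.67). Whether this differs from Apoe and Apoc1 was not tested. The 4 groups with a compound held between 2.81 and 3.93 CPM of Apoc2, all below the untreated libraries. Gm44805, a protein-coding entry on the same strand at chr7:19671584-19681423, overlaps Apoc2 and its neighbour Apoc4. How reads were divided among these entries was not tested.

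The 3 apolipoprotein genes sit in 1 cluster on chromosome 7. Of 10 listed neighbours, 8 were tested. LPS raised Bcl3, an IκB-family cofactor of NF-κB whose start site lies at -123.6 kb from that of Apoe (upstream on its strand), by 0.74 (adjusted p = 0.00536), and lowered Apoc4, the remaining apolipoprotein of the cluster. Apoc4 was near the limit of detection, with 22 and 12 reads untreated, 0 and 2 with LPS, and 10 and 3 with 6-shogaol at 30 µM. Tomm40, the mitochondrial import channel gene at -16.2 kb, Nectin2, Clptm1, Relb, Clasrp and Zfp296 were not called with LPS. Against LPS, the calls with 30 µM 6-shogaol among the neighbours were Relb, an NF-κB subunit, at -0.71 (adjusted p = 0.00125) and Bcl3 at -0.75 (adjusted p = 0.00315), both opposite in sign to Apoe and Apoc1. Each count is 2 of 8, beside 11.8% of all genes with LPS and 25.4% with 6-shogaol. The 2 LPS calls became 1 without untreated replicate 1 or LPS replicate 1 and 0 without LPS replicate 2, and the 2 calls with 6-shogaol became 1 without LPS replicate 2 or 6-shogaol 30 µM replicate 2. The median over the 8 neighbours was -0.22 with LPS and -0.03 with 6-shogaol, beside -0.03 and -0.002 over all genes.

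**Figure D2:**
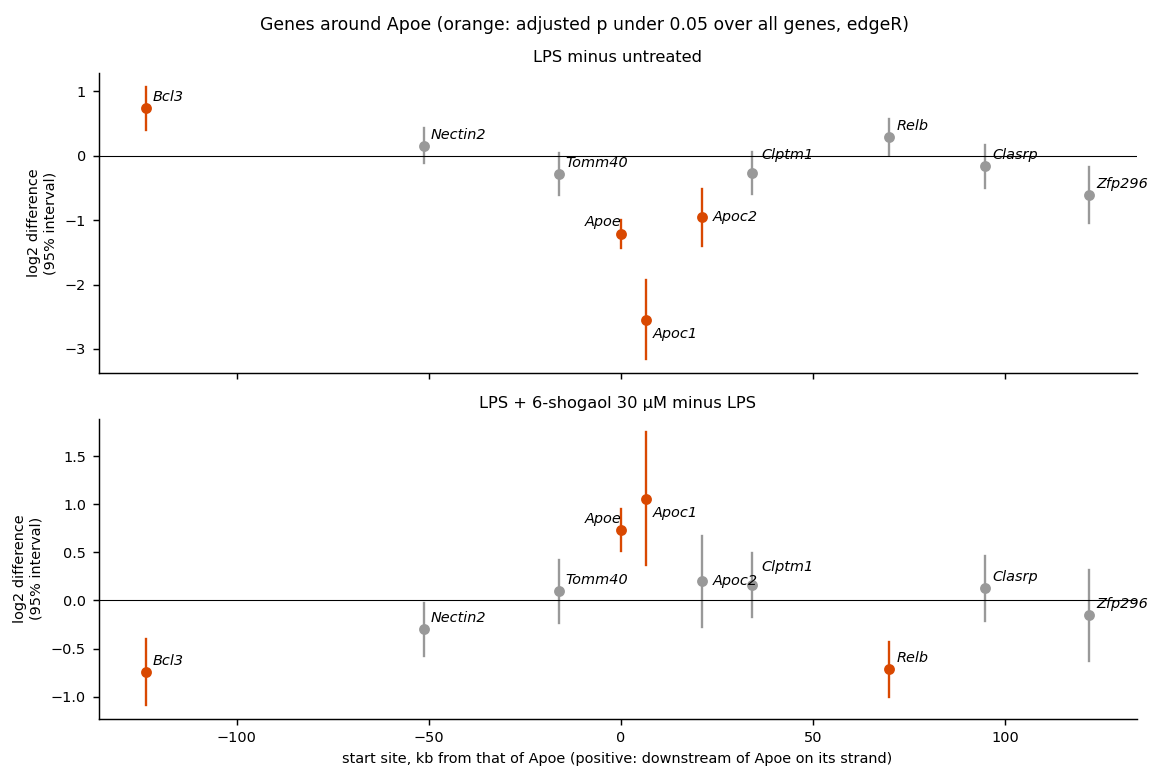
Log2 difference with its 95% interval (vertical axis) for the tested genes around Apoe, placed by the distance of their start site from that of Apoe in kb (horizontal axis), with LPS against untreated above and 6-shogaol 30 µM against LPS below; Apoc4, with 0 and 2 reads under LPS, is left out. Apoe, Apoc1 and Apoc2 are called lower above, Apoe and Apoc1 are called higher below, and Bcl3 is called in the opposite direction in both.

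Lpl encodes the secreted lipase that releases fatty acids from lipoprotein triglyceride, and it was the second most abundant of the 10 transcripts per length. It lies at chr8:68880491-68907448 on the plus strand. Its level was 536.9 and 568.2 CPM untreated, 427.5 and 439.1 CPM with LPS, and 550.8 and 603.6 CPM with 6-shogaol at 30 µM. The LPS libraries were the lower ones in both comparisons, without overlap. The log2 change with LPS was -0.35 (SE 0.11, adjusted p = 0.0411), and the difference of 6-shogaol at 30 µM from LPS was 0.41 (SE 0.11, adjusted p = 0.00938). The first call was lost when only untreated and LPS libraries were fitted (adjusted p = 0.186) and without untreated replicate 2 (0.151), LPS replicate 1 (0.223) or LPS replicate 2 (0.169). The second was lost without LPS replicate 1 (adjusted p = 0.0772), LPS replicate 2 (0.054) or 6-shogaol 30 µM replicate 2 (0.0872). With 6-gingerol, Lpl lay between 424.8 and 472.1 CPM, across the LPS values, and with 10 µM 6-shogaol at 523.8 and 485.1 CPM. Of 12 genes listed for folding, anchoring or inhibiting the lipase, 5 were tested. With LPS, 1 was called, the heparan sulfate proteoglycan Sdc1 at 1.11 (adjusted p = 0.000117). The 30 µM 6-shogaol comparison called 1, Sel1l, an adaptor of endoplasmic reticulum quality control that lipase maturation needs, at -0.41 (adjusted p = 0.00899). Each is 1 of 5 tested, beside 11.8% and 25.4% of all genes called in these comparisons, so neither count is a result about the list. The LPS count was 2 without untreated replicate 2. The 6-shogaol count was 0 without LPS replicate 2 or 6-shogaol 30 µM replicate 2, and 2 without 6-shogaol 30 µM replicate 1.

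Abca1, the transporter that loads cholesterol and phospholipid onto apolipoproteins, moved against Apoe in both comparisons. It lies on the minus strand at chr4:53030787-53159895. Its level was 171.1 and 215.4 CPM untreated and 271.2 and 270.4 CPM with LPS. The LPS libraries were both higher, a log2 change of 0.49 (SE 0.12, adjusted p = 0.0148). This call was lost with scaling by library totals (0.43, adjusted p = 0.0607) and without untreated replicate 1 (0.33, 0.0922), LPS replicate 1 (0.48, 0.0883) or LPS replicate 2 (0.49, 0.092). All 6 libraries with 6-gingerol or with 10 µM 6-shogaol lay between 250.1 and 301.8 CPM, around the LPS level. At 30 µM 6-shogaol Abca1 was 147.9 and 133.9 CPM, below every other library. The mean was 1.92-fold lower than with LPS, a log2 difference of -0.94 (SE 0.12, adjusted p = 5.72e-05).

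Abcg1, which exports cholesterol to mature lipoprotein particles, and Mylip, the ubiquitin ligase also called IDOL that marks LDL receptors for degradation, were not called in any of the 10 comparisons made. Abcg1 (chr17:31057675-31117988) had the third highest level per length, 42.7 TPM untreated. It was 120.0 and 152.0 CPM untreated, 118.5 and 116.7 CPM with LPS, and 118.8 and 111.2 CPM with 6-shogaol at 30 µM. The last difference from LPS was -0.03 (interval -0.30 to 0.24), so a change of the size seen for Abca1 lies outside the interval. Mylip (chr13:45389742-45412022) ran from 19.4 to 24.3 CPM over all 12 libraries, and its difference from LPS with 6-shogaol at 30 µM was -0.05 (interval -0.29 to 0.19). Against untreated cells, Abcg1 at 30 µM 6-shogaol was called without untreated replicate 1 (-0.40, adjusted p = 0.0269) and not with it (-0.24, 0.176).

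The stretches before the start sites of Abca1, Apoe and Lpcat3 are shown because these genes had calls of opposite sign at 30 µM 6-shogaol. They come from RefSeq promoters on GRCm38.p6, each 250 bases long and printed 5′ to 3′ on the strand of the gene, at chr4:53159896-53160145 (minus), chr7:19699189-19699438 (minus) and chr6:124662854-124663103 (plus). Capitals mark, in Abca1, a match to the LXR element, an E-box and a TATA box, and in Lpcat3, CCAAT boxes. Apoe has no capitals because none of those motifs was matched in this window.
Abca1: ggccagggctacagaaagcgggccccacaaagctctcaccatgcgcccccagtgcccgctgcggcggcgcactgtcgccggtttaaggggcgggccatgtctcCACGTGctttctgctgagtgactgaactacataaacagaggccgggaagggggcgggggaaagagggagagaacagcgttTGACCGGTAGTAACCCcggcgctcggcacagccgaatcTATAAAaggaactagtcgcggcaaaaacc
Apoe: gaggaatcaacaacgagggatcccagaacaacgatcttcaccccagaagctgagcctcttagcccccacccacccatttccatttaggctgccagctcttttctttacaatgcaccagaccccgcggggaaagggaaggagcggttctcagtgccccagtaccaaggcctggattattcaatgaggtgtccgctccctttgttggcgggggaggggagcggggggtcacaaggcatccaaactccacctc
Lpcat3: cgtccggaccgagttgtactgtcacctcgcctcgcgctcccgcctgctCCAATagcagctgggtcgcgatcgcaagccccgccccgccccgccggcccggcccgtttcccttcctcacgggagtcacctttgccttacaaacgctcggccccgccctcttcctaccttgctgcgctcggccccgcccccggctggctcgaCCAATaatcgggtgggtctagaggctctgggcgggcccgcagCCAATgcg
Promoter windows were found for 7 of the 10 genes, 10 windows in all, and none is printed for Apoc1, Abcg1 and Lpl. The LXR element was searched on both strands as a pair of AGGTCA half-sites in the same orientation, spaced by 4 bases of any kind. With up to 2 mismatches in its 12 fixed letters no window of these genes matched, and a limit of 3 was then chosen. At that limit the match in Abca1, TGACCGGTAGTAACCC on the minus strand with 3 mismatches and its first base at -67, was the 1 match in the 10 windows, and 21.9% of all 32851 promoters hold such a match (3.02% at 2 mismatches). The E-box CACGTG begins at -147 in Abca1 and is held by 7.15% of promoters. The TATA box TATAAA begins at -29 and is held by 13.6%. CCAAT, found at -202, -50 and -8 in Lpcat3, is held by 37.4%. Other motifs were searched too, and the Sp1 GC box GGGCGG, matched in Abca1 and Lpcat3 (35.7% of promoters), is not capitalized. The half-site AGGTCA was matched exactly in Apoc2, at -115 and 43 (16.3% of promoters). Another Apoe window, not printed, holds a TATA box at -96. These are matches of letters and not measured binding, and enhancers outside the windows were not searched.

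Of the LXR genes themselves, Nr1h3, which encodes LXRα, was lower with 6-shogaol at 30 µM, and Nr1h2, which encodes LXRβ, was not called. Nr1h3 (chr2:91184061-91202834) was 8.06 and 9.63 CPM untreated, 7.81 and 7.90 CPM with LPS, 9.06 and 6.79 CPM with 10 µM 6-gingerol, and 8.44 and 7.14 CPM with 30 µM. With 6-shogaol it was 6.51 and 6.92 CPM at 10 µM and 2.69 and 3.10 CPM at 30 µM. The 30 µM 6-shogaol libraries held 44 and 55 reads and lay below every other library. Their log2 difference from LPS was -1.44 (SE 0.20, adjusted p = 9.76e-05), a 2.72-fold lower mean, whereas LPS itself left Nr1h3 uncalled (-0.17, interval -0.54 to 0.19). Nr1h2 (chr7:44549616-44553951) ran from 36.0 to 48.4 CPM over all libraries, with a difference from LPS of -0.09 at 30 µM 6-shogaol (interval -0.33 to 0.15). Per length, Nr1h2 was the more abundant receptor transcript throughout, at 30.7 ± 5.92 TPM against 7.16 ± 2.93 TPM for Nr1h3 untreated and 25.0 ± 3.62 against 2.71 ± 1.22 TPM with 6-shogaol at 30 µM (SD, n = 2).

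The receptors act with partners, and the shares of these called were near or below those of all genes. Of 16 listed retinoid X receptors, peroxisome proliferator-activated receptors and coregulators, 13 were tested. With LPS, 1 rose, the fatty acid receptor gene Ppard (0.60, adjusted p = 0.0204), and 1 fell, Gps2, a subunit of the NCoR corepressor complex (-0.52, adjusted p = 0.0124). With 6-shogaol at 30 µM against LPS, 1 was called, Gps2 at -0.41 (adjusted p = 0.0323). These are 2 and 1 of 13, beside 11.8% and 25.4% of all genes. Their medians were -0.14 and 0.05. The 2 LPS calls became 1 without untreated replicate 2 or LPS replicate 2 and 0 without LPS replicate 1, and the Gps2 list had 0 calls with 6-shogaol without LPS replicate 2 or either 30 µM 6-shogaol library. Of 10 genes listed as oxysterol and LXR ligand enzymes, 6 were tested. LPS raised 1 of them, Hsd3b7, which acts on 7α-hydroxylated sterols, by 0.37 (adjusted p = 0.0449), and lowered 0. At 30 µM 6-shogaol, the microsomal epoxide hydrolase gene Ephx1 rose by 0.82 (adjusted p = 0.000104) and Cyp27a1, the sterol 27-hydroxylase, fell by 0.29 on the log2 scale (adjusted p = 0.0475). Ephx1 was also the single called gene of this list at 10 µM 6-shogaol (0.57, adjusted p = 0.0276). Whether the product of Ephx1 acts on sterol ligands in these cells was not tested. These are 1 of 6 with LPS, 2 of 6 at 30 µM and 1 of 6 at 10 µM, beside 11.8%, 25.4% and 0.638% of all genes. The 10 µM call was lost without any 1 of the 4 libraries compared, with fragment length as a covariate and with limma on the authors' values. The enzyme list had 0 calls with LPS without untreated replicate 2 or either LPS library, and 1 in place of 2 with 30 µM 6-shogaol without any 1 of the 4 libraries compared.

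Lpcat3, which puts polyunsaturated fatty acids into membrane phospholipids and is a known LXR target, was not called with LPS (-0.05, interval -0.25 to 0.16) and rose with 6-shogaol at 30 µM. It lies on the plus strand at chr6:124663027-124704418. It was 62.5 and 59.1 CPM untreated, 61.0 and 56.9 CPM with LPS, and between 56.0 and 61.1 CPM in the 4 libraries with 6-gingerol. With 6-shogaol it was 66.6 and 72.4 CPM at 10 µM and 92.1 and 84.1 CPM at 30 µM. Both 6-shogaol groups lay above every other library. At 30 µM the log2 difference from LPS was 0.58 (SE 0.10, adjusted p = 0.000517), and at 10 µM it was 0.24 (interval 0.03 to 0.45, adjusted p = 0.385).

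Other LXR target genes moved in both directions in the same comparison, mostly up. Of 20 listed, 12 were tested, and with 6-shogaol at 30 µM against LPS 6 rose and 1 fell, beside the 12.6% and 12.8% of all genes. Among genes reaching 5 CPM the largest increases were of Mertk, a receptor for engulfing dying cells (1.21, adjusted p = 0.000138), Scd2, a stearoyl-CoA desaturase (0.99, 3.76e-05), and Acaca, the acetyl-CoA carboxylase that starts fatty acid synthesis (0.78, 0.000299). Mertk was 4.60 and 4.05 CPM with LPS and 10.4 and 9.58 CPM with 6-shogaol. Named after their values were seen, Srebf1 rose by 0.73, Fasn by 0.72 and Fads1 by 0.59, and the small GTPase gene Arl4c fell by 0.44 on the log2 scale. Srebf1, Fasn and Fads1, like Scd2 and Acaca, are genes of fatty acid synthesis or desaturation that respond to SREBP-1 as well. The median of the 12 was 0.66, beside -0.002 over all genes. With LPS against untreated, 1 of the 12 rose, the lysosomal cholesterol carrier Npc2 (0.53, adjusted p = 0.00395), and 3 fell, Mertk (-0.87, 0.00333), Fasn (-0.50, 0.0092) and Apoc4, with a median of -0.02. These 4 of 12 stand beside 11.8% of all genes. The LPS calls in this list dropped from 4 to 2 without LPS replicate 1 and to 1 without LPS replicate 2. With 6-gingerol, 0 of the 12 were called at either dose.

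**Figure D3:**
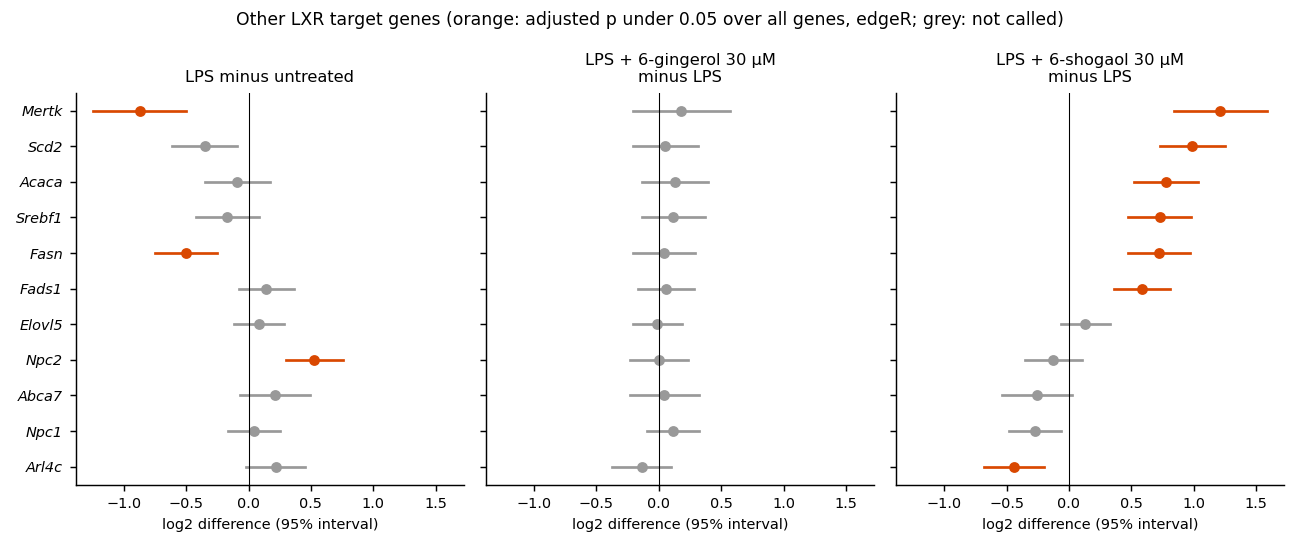
Log2 difference with its 95% interval for 11 other LXR target genes (rows) in 3 comparisons (panels), orange where called by edgeR; Apoc4 is left out for its low counts. Mertk, Scd2, Acaca, Srebf1, Fasn and Fads1 are called higher with 6-shogaol at 30 µM and Arl4c lower, and no gene is called with 6-gingerol at 30 µM.

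Against LPS, the log2 differences of the 10 genes with 6-gingerol at 30 µM ran from -0.07 for Lpcat3 to 0.38 for Apoc1, all at an adjusted p of 1. Their intervals set what could have been missed: -0.14 to 0.29 for Apoe, -0.34 to 1.10 for Apoc1, -0.26 to 0.25 for Abca1 and -0.38 to 0.36 for Nr1h3. The compounds were compared directly at both matched doses, with p-values adjusted over all 12705 genes. At 10 µM 0 of the 10 genes were called by edgeR and 0 by DESeq2. The share of all genes called by edgeR was 0.638% (0.0787% higher, 0.559% lower). An unadjusted edgeR p under 0.05 was found for 14.6% of all genes and for 2 of the 10. These were Apoe, with a difference of 6-shogaol from 6-gingerol of 0.29 (interval 0.08 to 0.51, adjusted p = 0.221), and Lpcat3, at 0.22 (0.02 to 0.43, adjusted p = 0.307). At 30 µM 5 of the 10 were called (3 higher and 2 lower with 6-shogaol), beside 25% of all genes, 12.5% higher and 12.4% lower. Apoe was 1.57-fold higher with 6-shogaol (log2 0.65, SE 0.10, adjusted p = 0.000291), Lpcat3 also 1.57-fold higher (0.65, SE 0.10, 0.00023), and Lpl 1.28-fold higher (0.36, SE 0.11, 0.0217). Abca1 was lower (-0.94, SE 0.12, adjusted p = 6.51e-05), and so was Nr1h3 (-1.42, SE 0.20, 0.000114). The libraries of both compounds did not overlap for any of these 5 genes, nor for Apoc1 and Mylip, which were not called. Overlap was not counted over all genes, so its absence adds no support to the calls. The Lpl call was lost without 6-gingerol 30 µM replicate 1 (0.31, adjusted p = 0.151), 6-gingerol 30 µM replicate 2 (0.40, 0.0596) or 6-shogaol 30 µM replicate 2 (0.29, 0.159).

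For the other 5 genes the difference between the compounds at 30 µM was not called, which does not show that they act alike. The interval was 0.02 to 1.33 for Apoc1 (estimate 0.68, adjusted p = 0.124), -0.61 to 0.30 for Apoc2, -0.42 to 0.12 for Abcg1, -0.38 to 0.10 for Mylip and -0.35 to 0.13 for Nr1h2. Apoc1 was called without 6-gingerol 30 µM replicate 2 (1.22, adjusted p = 0.0341), the library with 37 reads against 19 in replicate 1. Of the 12 other LXR targets tested, 7 were higher and 1 lower with 6-shogaol at 30 µM, beside 12.5% and 12.4% of all genes. Apoc4 was 1 of the 7, at 10 and 3 reads with 6-shogaol and 0 and 1 with 6-gingerol. Among genes reaching 5 CPM the largest increases were of Mertk (1.03, adjusted p = 0.000467), Scd2 (0.94, 6.52e-05) and Fasn (0.68, 0.000595).

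**Figure D4:**
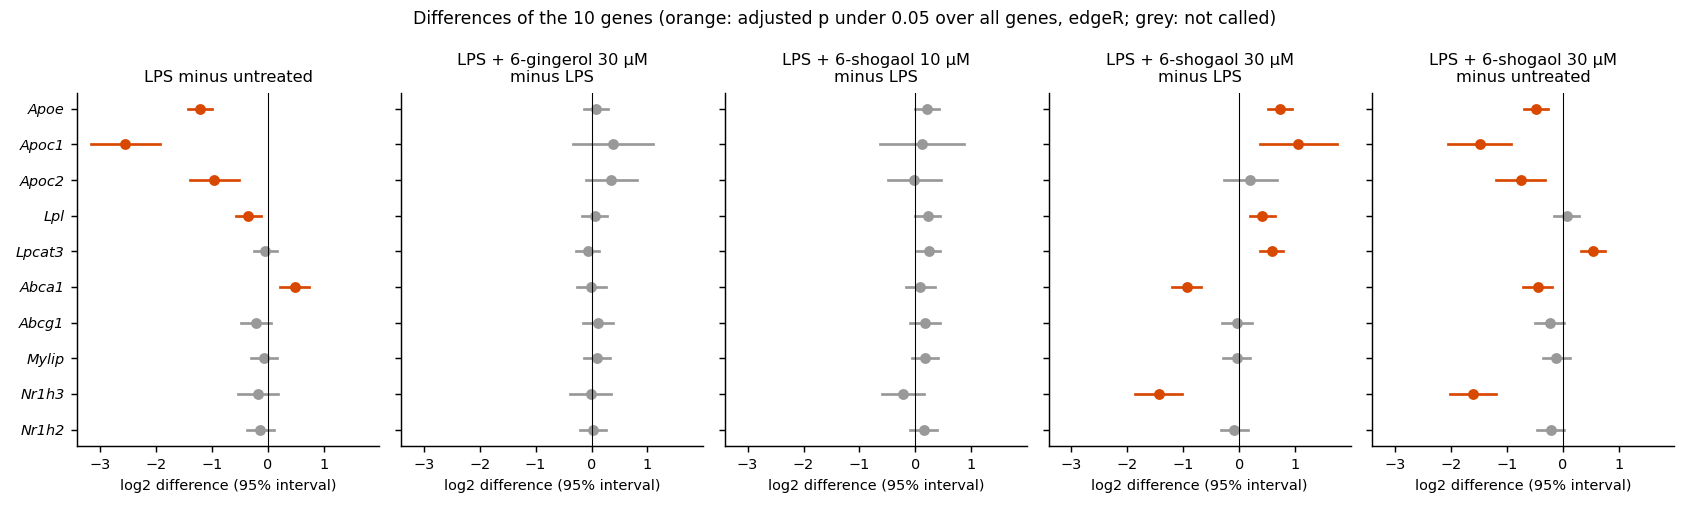
Log2 difference with its 95% interval for the 10 genes (rows) in 5 comparisons (panels), orange where called by edgeR over all genes. The 6-gingerol and 10 µM 6-shogaol panels hold no call, and with 6-shogaol at 30 µM Apoe, Apoc1, Lpl and Lpcat3 lie to the right of 0 and Abca1 and Nr1h3 to the left.

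Between the 6-shogaol doses, 4 of the 10 genes were called, beside 19.4% of all genes (9.85% higher, 9.54% lower). From 10 to 30 µM Apoe was higher by 0.52 (SE 0.10, adjusted p = 0.0025) and Lpcat3 by 0.34 (SE 0.10, 0.0228). Abca1 was lower (-1.03, SE 0.12, 4.55e-05), as was Nr1h3 (-1.21, SE 0.20, 0.000744). The Lpcat3 call was lost with library totals (0.27, adjusted p = 0.0745) and without 6-shogaol 10 µM replicate 1 (0.28, 0.186), 6-shogaol 10 µM replicate 2 (0.40, 0.0739) or 6-shogaol 30 µM replicate 1 (0.27, 0.142). Apoc1 just missed the threshold (0.94, adjusted p = 0.0513) and passed it without the filter on low counts (0.94, 0.021) and with only those 2 groups fitted (0.93, 0.0276). Whether the step from 10 to 30 µM differed between the compounds was tested as an interaction, and 2 of the 10 genes were called, beside 8.17% of all genes (4.27% higher, 3.9% lower). The step was lower with 6-shogaol by a log2 difference of -1.05 for Abca1 (SE 0.17, adjusted p = 0.00212) and -1.19 for Nr1h3 (SE 0.27, adjusted p = 0.0146). The Nr1h3 call was lost with limma on the authors' normalized values (-1.12, adjusted p = 0.164) and without 6-gingerol 30 µM replicate 1 (-1.07, 0.0707), 6-shogaol 10 µM replicate 2 (-1.15, 0.071) or 6-shogaol 30 µM replicate 1 (-1.09, 0.0553). For Apoe the step differed by 0.36 (interval 0.06 to 0.67) and for Lpcat3 by 0.42 (0.13 to 0.72), neither called (adjusted p = 0.132 and 0.0724).

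Set against untreated cells, the cultures with LPS and 30 µM 6-shogaol had 6 of the 10 genes called (1 higher, 5 lower), beside 25.4% of all genes (13.3% higher, 12.1% lower). Apoe remained lower than untreated (-0.48, SE 0.10, adjusted p = 0.00292), as did Apoc1 (-1.49, SE 0.26, 0.000813) and Apoc2 (-0.76, SE 0.21, 0.0142). Abca1 was lower than untreated as well (-0.46, SE 0.12, 0.0129), and Nr1h3 was 3.06-fold lower (-1.61, SE 0.20, 3.06e-05). Lpcat3 was higher (0.54, SE 0.10, adjusted p = 0.000968), and Lpl, at 0.06 (interval -0.16 to 0.29), overlapped the untreated libraries. Apoc2 lost its call in DESeq2 (adjusted p = 0.0552), with limma on the authors' values (0.0591) and without untreated replicate 1 (-0.59, 0.101) or 6-shogaol 30 µM replicate 1 (-0.55, 0.139). Abca1 lost it with limma (-0.35, adjusted p = 0.0684) and without untreated replicate 2 (-0.25, 0.142), whose 215.4 CPM stands above the 171.1 CPM of replicate 1, or without 6-shogaol 30 µM replicate 2 (-0.37, 0.135).

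Genes that take up, store or release lipid moved in both directions around the 10. Of 12 receptors and uptake genes, 10 were tested. LPS raised 4 and lowered 2, among them the scavenger receptor gene Msr1 (0.85, adjusted p = 0.012), Lrp8, a receptor of APOE (0.85, 0.000219), and the fatty acid translocase gene Cd36 (-0.79, 0.00757). With 6-shogaol at 30 µM against LPS 3 rose and 2 fell, and Msr1 was at -1.02 (adjusted p = 0.00252), Cd36 at 0.73 (0.00809) and Lrp8 at 0.40 (0.0244). These are 6 and 5 of 10, beside 11.8% and 25.4% of all genes. The 6 LPS calls became 3 without LPS replicate 2. The 5 with 6-shogaol became 2 without LPS replicate 1 or 6-shogaol 30 µM replicate 1, and 3 without LPS replicate 2 or 6-shogaol 30 µM replicate 2. Of 15 storage and lysosomal release genes, 14 were tested. LPS raised the acyl-CoA synthetase gene Acsl1 (1.38, adjusted p = 2.99e-08) and Dgat2 (0.98, 4.21e-05) and lowered Dgat1 (-0.42, 0.028), the last 2 both encoding enzymes of triglyceride synthesis. With 6-shogaol at 30 µM 4 rose and 3 fell, led by the lipid droplet gene Hilpda (-1.44, 3.97e-06), Dgat2 (-1.26, 3.64e-06) and the sterol carrier gene Stard4 (0.84, 5.25e-05). The storage counts are 3 and 7 of 14, beside the same 11.8% and 25.4%. The medians of these lists with 6-shogaol were 0.13 and 0.15.

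Apoe and Lpl are also members of the gene set by which lipid-associated and disease-associated microglia are known, and 18 of 19 other genes of that set were tested. LPS raised 2 and lowered 4, with Cst7, a cysteine protease inhibitor, at 1.10 (adjusted p = 5.56e-05), the lipid-sensing receptor gene Trem2 at -0.63 (0.00148) and Timp2 at -0.61 (0.00362). With 6-shogaol at 30 µM against LPS 4 rose and 3 fell. The 3 that fell had the largest changes among called genes reaching 5 CPM. They were Csf1 (-1.10, adjusted p = 4.91e-06), Cst7 (-1.07, 7.62e-05) and the galectin gene Lgals3 (-0.75, 0.0017). The counts of calls are 6 and 7 of 18, beside 11.8% and 25.4% of all genes. The 6 LPS calls became 3 without untreated replicate 1 or LPS replicate 2 and 2 without LPS replicate 1, and the 7 with 6-shogaol became 4 without LPS replicate 2 or 6-shogaol 30 µM replicate 1. The median of the 18 was -0.28 with LPS and 0.07 with 6-shogaol at 30 µM.

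As a description of shape over the 12 libraries, the genes whose log2 CPM followed Apoe most closely among 8940 genes of at least 10 CPM were Psap (Pearson r = 0.968), Ssrp1, Cxcr4, Tmcc1 and Rgs2. Psap, the precursor of the lysosomal saposins, was at 2415 CPM untreated, 1697 with LPS and 2179 with 6-shogaol at 30 µM. For Apoc1 they were Arl2bp (0.955), Rgs2, Apoe (0.947), Nt5c2 and Fcgr3, for Abca1 Csf2rb2 (0.983), Cntnap1, Csf1, Zbtb21 and Reps1, and for Lpl Hnrnpr (0.975), Rasgrp3, Kcnj2, Hnrnpd and Rab7b. Csf1, a growth factor of microglia, was at 135.5 CPM untreated, 176.7 with LPS and 82.7 with 6-shogaol at 30 µM, the order that Abca1 had. The 12 libraries are 6 pairs of replicates, so these coefficients largely restate the group means.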

How the data were processed

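RNA from 12 BV2 libraries (TruSeq stranded mRNA, paired-end) was analysed from RSEM expected counts and TPM, both made by the authors and deposited per library. Per the submitters' processing notes the tools included Trimmomatic 0.39, FastQC 0.12.1, STAR 2.7.11b, RSEM 1.3.3 and DESeq2 1.44.0 on GRCm38. A deposited table of normalized signal by the authors, whose scaling method is not given in the sources used here, served as an alternative: genes with a mean of at least 10, log2(value + 1), limma. Expected counts (7.03% not whole) were rounded and fitted with edgeR 4.0.16 (quasi-likelihood F test, TMM, filterByExpr) in R 4.3.3, with 6 group means over 12 libraries and Benjamini-Hochberg adjustment over 12705 genes for each of 10 comparisons. Intervals are 95%. The fitting was tested on simulated data for LPS against untreated. The changes put in were larger than most of those called in the 10 genes, so smaller ones were not covered. Replicates of each group differed by more than sampling noise. The 10 genes and all lists were chosen with earlier results of these data known. From each list the text names, per comparison, at most the 3 called genes with the largest change that reach 5 CPM in a group (all tested genes of the Apoe cluster, and the 5 genes most correlated with Apoe, Apoc1, Abca1 and Lpl), and others are said to be named after their values were seen. Alternatives were library totals, no filter, DESeq2 1.42.0, only the groups compared, a replicate block, fragment length as covariate, limma 3.58.1 on the authors' values, and leaving out each library. Gene positions are from GENCODE M21 and promoters from RefSeq.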

Additional observations from a re-analysis of the deposited data

Results flagged for a closer look

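These values stood out because the compounds differed by a test of the difference itself, over 2 libraries per group. At 30 µM, 6-shogaol minus 6-gingerol was 0.65 for Apoe, 0.65 for Lpcat3 and 0.36 for Lpl on the log2 scale. The same difference was -0.94 for Abca1 and -1.42 for Nr1h3. The step from 10 to 30 µM, 6-shogaol minus 6-gingerol, was -1.05 for Abca1 and -1.19 for Nr1h3.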

How the results depend on the processing

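Of 1140 results of the 10 genes under an alternative, 1053 kept their direction and side of the threshold, 34 lost a call, 4 gained one and 49 turned sign while called under neither setting. The calls lost or gained stand beside their results. The number of the 10 genes called with LPS, 5, was 2 to 4 without 1 library. Testing whether the dose steps were unequal called 2, and 1 with limma on the authors' values, and 1 to 2 without 1 library. The cause of these shifts was not tested. The sign turned as follows. With limma on the authors' values the log2 differences became Nr1h3 0.096 (LPS against untreated), Apoc1 0.12, Abcg1 -0.036, Nr1h2 -0.029, Nr1h3 -0.17 and Lpl -0.039 (6-gingerol 10 µM against LPS), Nr1h2 -0.0019 and Lpcat3 0.0079 (6-gingerol 30 µM against LPS), Apoc2 0.011 (6-shogaol 10 µM against LPS) and Abcg1 0.10 (6-shogaol 30 µM against LPS). With library totals the log2 differences became Nr1h2 -0.013, Nr1h3 -0.030 and Lpcat3 -0.023 (6-gingerol 10 µM against LPS), Abca1 0.039 and Nr1h3 0.029 (6-gingerol 30 µM against LPS), Apoc2 0.055 (6-shogaol 10 µM against LPS) and Apoc2 -0.064 (unequal dose steps of the compounds). With fragment length as a covariate the log2 differences became Abcg1 -0.075 and Nr1h3 -0.14 (6-gingerol 10 µM against LPS) and Abcg1 -0.019 (6-shogaol 10 µM against LPS). For LPS against untreated, the range without 1 library was Mylip -0.17 to 0.014 and Lpcat3 -0.096 to 0.0038. For 6-gingerol 10 µM against LPS, the range without 1 library was Apoc1 -0.24 to 0.030, Nr1h2 -0.036 to 0.094, Lpcat3 -0.033 to 0.066, Apoe -0.18 to 0.017, Abca1 -0.099 to 0.056, Abcg1 -0.082 to 0.18, Nr1h3 -0.21 to 0.21 and Lpl -0.028 to 0.12. For 6-gingerol 30 µM against LPS, the range without 1 library was Nr1h2 -0.038 to 0.092, Abcg1 -0.016 to 0.24, Apoe -0.0068 to 0.16, Apoc1 -0.16 to 0.77, Abca1 -0.11 to 0.098 and Nr1h3 -0.14 to 0.10. For 6-shogaol 10 µM against LPS, the range without 1 library was Apoc1 -0.020 to 0.26 and Apoc2 -0.066 to 0.040. For 6-shogaol 30 µM against LPS, the range without 1 library was Mylip -0.13 to 0.050, Apoc2 -0.044 to 0.40, Abcg1 -0.079 to 0.016 and Nr1h2 -0.20 to 0.018. For 6-shogaol against 6-gingerol at 10 µM, the range without 1 library was Abcg1 -0.016 to 0.25. For 6-shogaol against 6-gingerol at 30 µM, the range without 1 library was Apoc2 -0.40 to 0.048. For 6-shogaol 30 against 10 µM, the range without 1 library was Apoc2 -0.031 to 0.42. For unequal dose steps of the compounds, the range without 1 library was Apoc2 -0.16 to 0.29. Over all genes the numbers called were 1501 for LPS against untreated (from 768 to 1772), 0 for 6-gingerol 10 µM against LPS (from 0 to 28), 0 for 6-gingerol 30 µM against LPS (from 0 to 27), 81 for 6-shogaol 10 µM against LPS (from 18 to 970), 3222 for 6-shogaol 30 µM against LPS (from 1827 to 4021), 81 for 6-shogaol against 6-gingerol at 10 µM (from 16 to 419), 3171 for 6-shogaol against 6-gingerol at 30 µM (from 1807 to 3452), 2463 for 6-shogaol 30 against 10 µM (from 960 to 3561), 3229 for 6-shogaol 30 µM against untreated (from 1980 to 3527) and 1038 for unequal dose steps of the compounds (from 300 to 1557). Library totals moved the median of all genes by 0.111 for 6-shogaol against 6-gingerol at 10 µM and by -0.15 for the unequal dose steps. Replicate numbers did not pair the samples: over 15 pairs of groups the correlation of replicate differences ran from -0.31 to 0.18, with 5 above 0.1. With the replicate number as a block, the count of the 10 genes called was the same in all 10 comparisons (5 with LPS, 6 with 6-shogaol at 30 µM), and all genes called were 1541 with LPS and 3262 with 6-shogaol at 30 µM. Depth limits Apoc1, with 17 to 42 reads in the libraries given LPS, and 2 replicates a group limit every interval. A library left out leaves its group with 1 sample, which is then assumed to vary like the other groups.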
